A study of Mus musculus with 6 samples.

Results

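The mitochondrial carrier family, named SLC25, was examined in left ventricles of mice given 2-methyl-2-thiazoline (2MT), a small thiazoline compound, and of mice given saline. Its members were taken as all probe sets whose only gene symbol on the array's platform annotation starts with Slc25a. This gave 50 of 28944 probe sets, which name 46 genes. Of these, 36 lay above the level under which signals were treated as dim, and 10 lay under it.

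The 2MT group was of 10-week-old male C57/BL6 mice whose hearts were excised 4 h after 50 mg/kg of the compound had been injected under the skin. The saline group had the same strain, sex and age, and its labels give saline as the treatment with no dose or route of its own. Each group had 3 Affymetrix arrays, and a study of how 2MT protects the heart was the stated purpose. The labels do not say that each array is a separate animal, so the p-values rest on a spread among samples that could be technical. Whole ventricular tissue was measured, so fewer cells of a type and less RNA per cell cannot be told apart.

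Carriers of this family sit mostly in the inner mitochondrial membrane, which is otherwise nearly closed to charged metabolites, and exchange nucleotides, phosphate, organic acids, amino acids, cofactors and metal ions between cytosol and matrix. In heart muscle they bring ADP and phosphate in and take ATP out, import acylcarnitines for fatty acid oxidation, and carry reducing equivalents inward through the malate-aspartate shuttle. They are made in the cytosol and inserted by a dedicated import machinery.

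Values are log2 signals as deposited, where a difference of 1 is a doubling, and the array medians lay between 4.32 and 4.37. Signals of different probe sets depend on the probes, so only the same gene is compared between arrays. Saline 3 stood apart on the second principal component of the tested genes, at -11.6 against -1.12 to 4.65 for the other 5 arrays. All 13 cardiomyocyte markers lay above the dim level, with array means of 12.12 to 12.16 in 2MT and 12.13 to 12.15 in saline. Atrial markers (5 measured, 3 dim) averaged 4.87 to 4.88 in 2MT and 4.86 to 5.52 in saline, with saline 2 highest. Neutrophil markers (10 measured, 9 dim) averaged 3.48 to 3.55 in 2MT and 3.68 to 3.70 in saline. Most of that gap came from 1 dim gene, Clec4d, at means of 3.35 in 2MT and 4.58 in saline. The mean difference of the list was -0.18 with it and -0.06 without it, a step chosen after its values were seen. The 9 other neutrophil markers averaged 3.52 to 3.54 in 2MT and 3.57 to 3.61 in saline, still without overlap. Of 11 marker lists, 2 held 1 called gene each and 9 held 0, beside 4.63% of all tested genes called. Endothelial markers (8 measured, 0 dim) had 4 at an unadjusted p under 0.05 (50%, beside 17.8% of all tested genes, limma). Of these Pecam1 fell by 0.33 (limma adjusted p = 0.020) while Kdr, Emcn and Fabp4, at 0.24, 0.20 and -0.14, did not pass. Their list averaged 7.73 to 7.89 in 2MT and 7.69 to 7.83 in saline. Of the adipocyte markers (7 measured, 6 dim) Cidea fell by 0.26 (limma adjusted p = 0.0435), and that list averaged 3.86 to 3.91 in 2MT and 3.81 to 3.91 in saline. The part of these markers in the carrier results was not tested.

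Few carriers differed at 4 h. Of 36 tested, 1 fell, the pyrimidine nucleotide carrier Slc25a33, and 1 rose slightly, the oxoglutarate/malate carrier Slc25a11, at a limma adjusted p under 0.05 over all 10547 genes tested. That is 5.56% of the carriers. Of all tested genes 4.63% passed, 2.22% upward and 2.41% downward. Arrays of the groups were fully separated in 8 carriers (22.2%), beside 21.1% of all tested genes, and an unadjusted p under 0.05 was reached by 8 carriers (22.2%), beside 17.8%. These shares lie near the background. The median difference of the tested carriers was 0.03, against 0.00 (0.0033) for all tested genes, with 20 higher and 16 lower means in 2MT. The median size of the difference was 0.06 among the carriers and 0.09 among all tested genes. Without saline 3, the carrier counts were 1 higher and 2 lower.

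**Figure D1:**
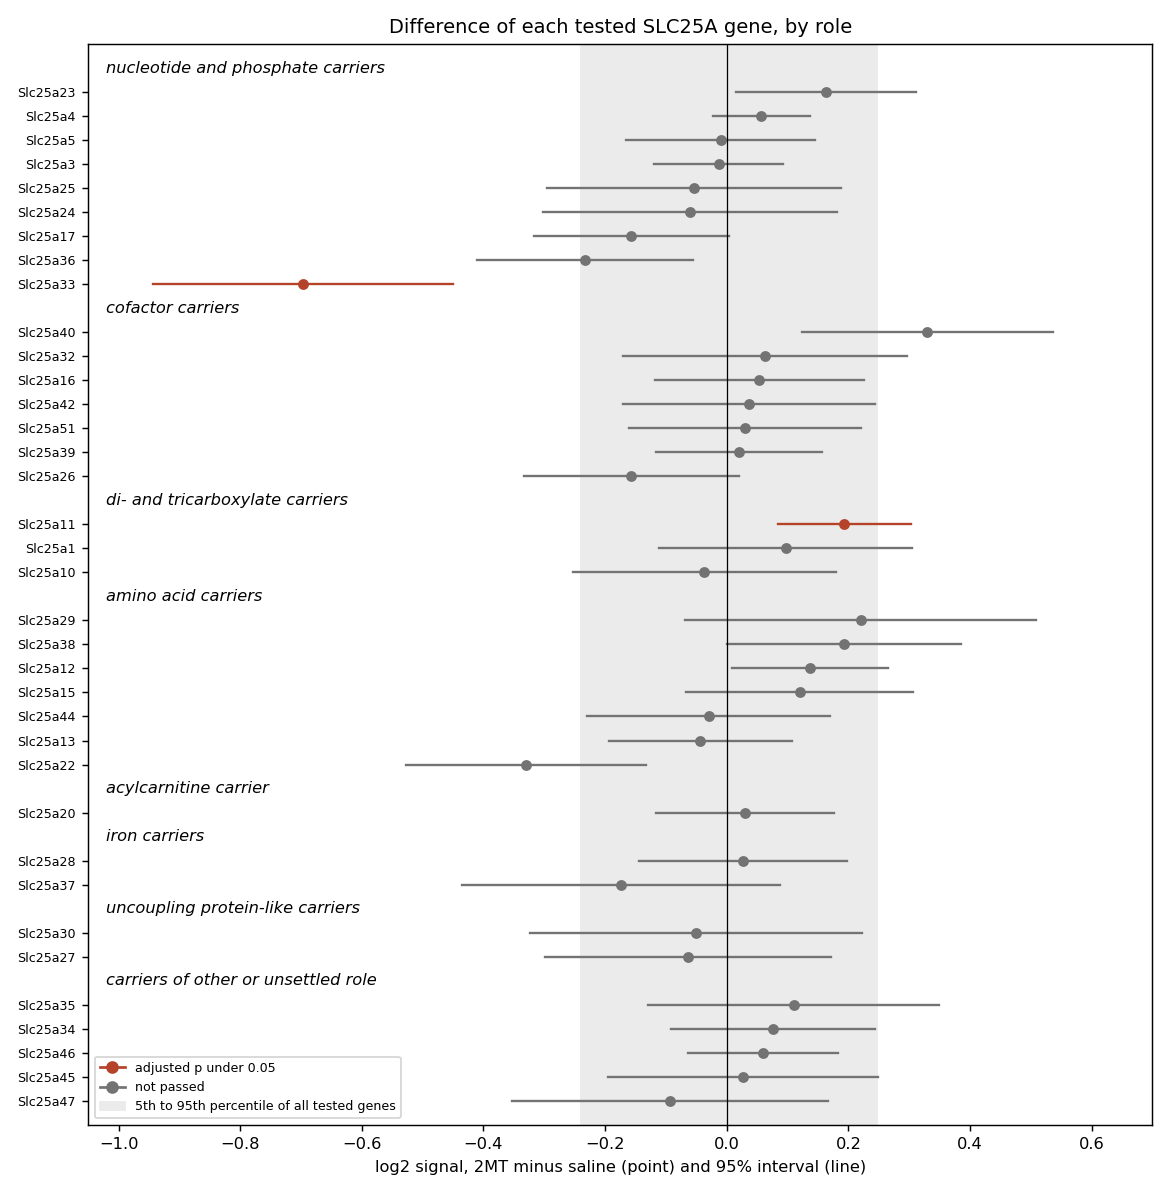
Difference in log2 signal, 2MT minus saline, of the 36 tested SLC25A genes, grouped by role, with limma's 95% interval over 3 arrays per group. Slc25a33 at -0.70 and Slc25a11 at 0.19 passed an adjusted p of 0.05 (red), and the grey band from -0.24 to 0.25 holds the 5th to 95th percentile of all tested genes.

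Slc25a33 carries pyrimidine nucleotides into the matrix, where they supply mitochondrial DNA and RNA synthesis. It read 5.24, 5.48 and 5.64 on the 2MT arrays and 5.95, 6.18 and 6.32 on the saline arrays. Every 2MT array lay under every saline array, with a gap of 0.31 between the nearest arrays. Slc25a33 fell by 0.70 ± 0.11 (SE) on the log2 scale, 1.62-fold, with means of 5.45 ± 0.20 in 2MT and 6.15 ± 0.19 in saline (SD, n = 3 each, adjusted p = 0.00296). Its 95% interval ran from -0.94 to -0.45, and by p it ranked 113 among the 10547 genes. It passed in each of 17 alternative analyses, with differences of -0.80 to -0.54 and adjusted p values of 0.00015 to 0.017 (limma), and without saline 3 it was -0.61 (0.0127).

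Slc25a36, the other pyrimidine nucleotide carrier, read 7.50, 7.60 and 7.65 in 2MT and 7.81, 8.0 and 7.64 in saline. Only saline 3 reached into the 2MT range. The difference was -0.23 ± 0.08 (SE, adjusted p = 0.14), and without saline 3 it was -0.32 with an adjusted p of 0.0273 (limma). Slc25a36 passed in only that 1 of 17 alternatives. Over the 17 its differences ran from -0.32 to -0.14, with adjusted p values up to 0.41 (limma). Its second probe set gave a difference of -0.16 when each probe set was tested on its own (adjusted p = 0.37).

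The upstream regions of both pyrimidine carriers and of Slc25a11 are shown because these genes carry the family's calls and the pair just described. Each holds the 250 bases before the gene's start in RefSeq's table for GRCm38.p6, 5′ to 3′ on the gene's strand, and capitals mark matches to a motif. Slc25a33 lies at chr4:149774268-149774517, Slc25a36 at chr9:97111042-97111291 and Slc25a11 at chr11:70647040-70647289, all on the minus strand.
Slc25a33: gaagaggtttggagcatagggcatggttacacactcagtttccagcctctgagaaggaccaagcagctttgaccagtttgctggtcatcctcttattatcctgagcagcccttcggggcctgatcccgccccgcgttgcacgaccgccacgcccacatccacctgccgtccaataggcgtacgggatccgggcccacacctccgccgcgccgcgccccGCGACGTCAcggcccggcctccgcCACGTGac
Slc25a36: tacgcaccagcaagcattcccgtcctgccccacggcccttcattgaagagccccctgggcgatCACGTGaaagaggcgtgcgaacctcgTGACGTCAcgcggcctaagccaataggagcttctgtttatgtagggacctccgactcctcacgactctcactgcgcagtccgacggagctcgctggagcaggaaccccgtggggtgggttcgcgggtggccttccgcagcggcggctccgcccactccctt
Slc25a11: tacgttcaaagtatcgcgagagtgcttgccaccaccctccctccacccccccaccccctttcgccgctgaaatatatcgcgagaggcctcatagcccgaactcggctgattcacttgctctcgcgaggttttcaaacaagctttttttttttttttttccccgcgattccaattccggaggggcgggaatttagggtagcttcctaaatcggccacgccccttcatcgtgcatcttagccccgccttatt

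The motifs were searched on both strands. They were the core of the antioxidant response element bound by NRF2 (TGACNNNGC), the E-box (CACGTG), the cAMP response element (TGACGTCA, which shares the letters TGAC with the first) and the oestrogen-related receptor element (TNAAGGTCA). Slc25a33 held an antioxidant response element core 32 to 24 bases before its start and an E-box 8 to 3 bases before it. Slc25a36 held an E-box 187 to 182 bases before its start and a cAMP response element 161 to 154 bases before it, and Slc25a11 held 0 of the motifs. Promoters were listed for 36 of the 46 member genes, 46 promoters in all, with a median GC content of 57.4% against 52.4% in all 32851 promoters. The other 10 genes were Slc25a2, Slc25a26, Slc25a27, Slc25a32, Slc25a35, Slc25a37, Slc25a41, Slc25a44, Slc25a46 and Slc25a51. The E-box stood in 8 member promoters (17.4%) and in 6.02% of all, and the antioxidant response element core in 9 (19.6%) and in 10.2% of all. The cAMP response element stood in 2 (4.35%) and in 1.55% of all, and the oestrogen-related receptor element in 0 and in 1.14% of all. A match is a description of the letters, and its use in these hearts was not tested.

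**Figure D2:**
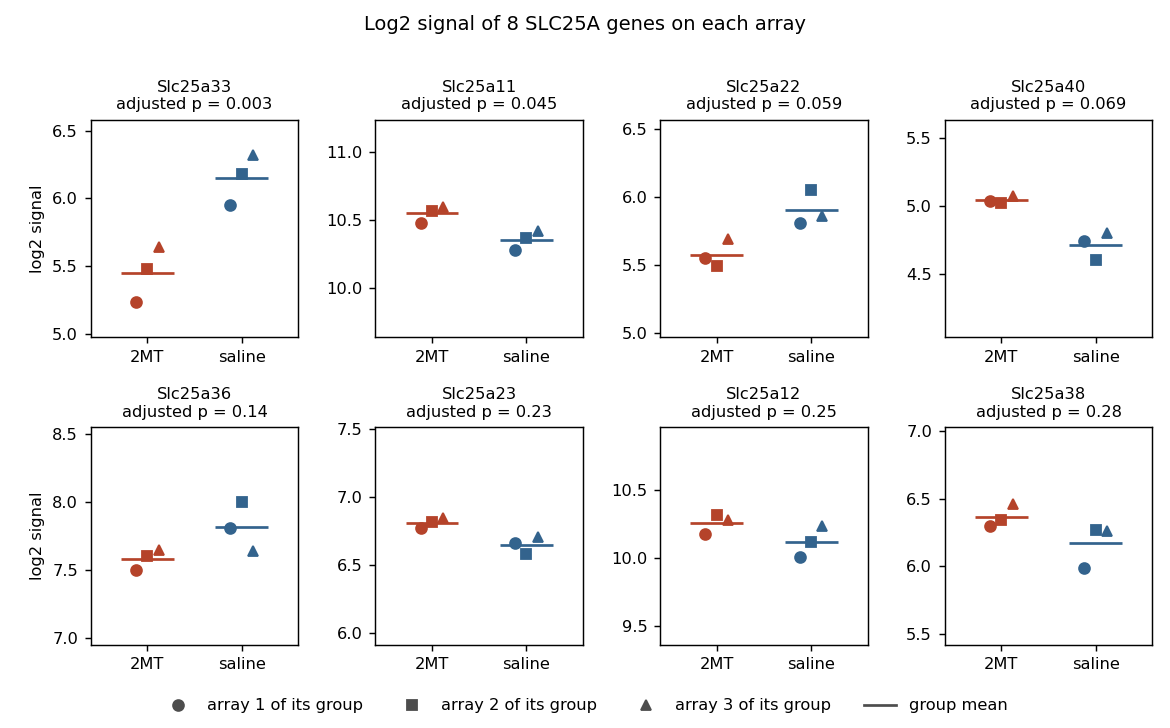
Log2 signal on each array (points) and group means (lines) of the 8 carriers with an unadjusted p under 0.05, 2MT left and saline right, every panel spanning 1.6 log2 units. Slc25a33 showed the widest gap between groups (2MT 5.24 to 5.64, saline 5.95 to 6.32), and in Slc25a36 and Slc25a12 the groups overlapped.

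Among the remaining nucleotide and phosphate carriers 0 passed. Of all 9 tested in that group 3 had an unadjusted p under 0.05 (33.3%, beside 17.8% of all tested genes, limma). Slc25a4, the ADP/ATP carrier typical of heart and skeletal muscle, read 12.51, 12.46 and 12.52 in 2MT and 12.45, 12.42 and 12.45 in saline. The groups did not overlap, but the difference was 0.06 ± 0.04 (SE, adjusted p = 0.46), with a 95% interval of -0.02 to 0.14. Slc25a5, the more widely expressed ADP/ATP carrier, read 10.11, 9.94 and 9.95 in 2MT and 10.01, 9.85 and 10.17 in saline (difference -0.01, interval -0.17 to 0.15). That gene has near-identical copies in the genome that its probe sets may also read. Its 3 probe sets gave differences of 0.09, -0.01 and 0.02.

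Slc25a3, the phosphate carrier needed for ATP synthesis, read 9.60, 9.48 and 9.56 in 2MT and 9.53, 9.57 and 9.58 in saline. Its difference of -0.01 had an interval of -0.12 to 0.09. For these carriers of ADP, ATP and phosphate, group means of the probe sets used differed by 0.06 or less (log2).

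The calcium-stimulated ATP-Mg/phosphate carriers adjust the adenine nucleotide pool of the matrix. Slc25a23 read 6.77, 6.82 and 6.85 in 2MT and 6.66, 6.58 and 6.71 in saline, without overlap (0.16 ± 0.07, SE, adjusted p = 0.23). Slc25a25 read 4.59, 4.57 and 4.39 in 2MT and 4.71, 4.59 and 4.41 in saline, close to the dim level of 4.345 (adjusted p = 0.87). Slc25a24 differed by -0.06 (adjusted p = 0.85), and Slc25a17, a peroxisomal carrier, by -0.16 without overlap (adjusted p = 0.29).

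The malate-aspartate shuttle uses an oxoglutarate/malate carrier, Slc25a11, together with an aspartate/glutamate carrier, Slc25a12 or Slc25a13. Slc25a11 read 10.48, 10.57 and 10.60 in 2MT and 10.28, 10.37 and 10.42 in saline. The groups did not overlap, and the lowest 2MT array stood 0.06 above the highest saline array. The gene rose by 0.19 ± 0.05 (SE), 1.14-fold, with means of 10.55 ± 0.06 in 2MT and 10.36 ± 0.07 in saline (SD, n = 3 each, adjusted p = 0.0448). This call was lost in 9 of 17 alternatives. Adjusted p values (limma) were 0.149 without 2MT 2, 0.205 without 2MT 3, 0.172 without saline 1 and 0.0967 without saline 2, and 0.0664 with median centring, 0.0671 with cyclic loess, 0.0754 with no dim filter, 0.0823 with every probe set tested and 0.213 without the variance trend.

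Slc25a12, the calcium-regulated aspartate/glutamate carrier of heart and brain, read 10.18, 10.32 and 10.28 in 2MT and 10.01, 10.12 and 10.24 in saline. The difference was 0.14 ± 0.06 (SE, adjusted p = 0.25) with overlapping groups. Slc25a13, its relative best known in liver, read 8.42, 8.42 and 8.32 in 2MT and 8.38, 8.32 and 8.59 in saline (-0.04, adjusted p = 0.82). Of the shuttle's enzymes, the aspartate transaminases Got1 and Got2 differed by -0.01 and 0.06 and the malate dehydrogenases Mdh1 and Mdh2 by 0.04 and -0.06, at adjusted p values of 0.49 to 0.96.

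Of the other organic acid carriers, the citrate carrier Slc25a1 differed by 0.10 (adjusted p = 0.67) and the dicarboxylate carrier Slc25a10 by -0.04 (adjusted p = 0.90). Slc25a20, which brings acylcarnitines to the matrix for fatty acid oxidation, read 9.15, 9.29 and 9.10 in 2MT and 9.01, 9.19 and 9.25 in saline. Its difference of 0.03 (adjusted p = 0.88) had an interval of -0.12 to 0.18.

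Among 7 tested amino acid carriers 0 passed, with 3 at an unadjusted p under 0.05 (42.9%, beside 17.8% of all tested genes, limma). The glutamate carrier Slc25a22 read 5.55, 5.49 and 5.69 in 2MT and 5.81, 6.05 and 5.86 in saline. All 2MT arrays lay under all saline arrays. The difference was -0.33 ± 0.09 (SE), with an adjusted p of 0.0587 that ranged from 0.0505 to 0.215 over the 17 alternatives. Slc25a38, which imports glycine for haem synthesis, read 6.30, 6.34 and 6.46 in 2MT and 5.99, 6.27 and 6.26 in saline, and its 2MT arrays lay above all saline arrays (0.19 ± 0.09, SE, adjusted p = 0.28). The basic amino acid carrier Slc25a29 differed by 0.22 (adjusted p = 0.42), the ornithine carrier Slc25a15 by 0.12 (adjusted p = 0.52) and the branched-chain amino acid carrier Slc25a44 by -0.03 (adjusted p = 0.92).

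Among 7 tested cofactor carriers 0 passed, with 1 at an unadjusted p under 0.05 (14.3%, beside 17.8% of all tested genes, limma). Slc25a39 and Slc25a40 import glutathione, the main thiol antioxidant of the matrix. Slc25a39 read 7.76, 7.72 and 7.84 in 2MT and 7.76, 7.67 and 7.83 in saline, a difference of 0.02 (adjusted p = 0.92, interval -0.12 to 0.16). Slc25a40 read 5.04, 5.02 and 5.07 in 2MT and 4.74, 4.60 and 4.80 in saline. Its groups did not overlap, and the difference was 0.33 ± 0.10 (SE, adjusted p = 0.0688). It passed in 1 alternative, the fit without the variance trend (adjusted p = 0.0472 in limma). A second Slc25a40 probe set, with a mean of 4.28 under the dim level, differed by 0.05.

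Slc25a51, which imports NAD, read 6.62, 6.84 and 6.97 in 2MT and 6.69, 6.78 and 6.87 in saline (0.03, adjusted p = 0.91). Slc25a26, which imports S-adenosylmethionine, differed by -0.16 (adjusted p = 0.35). Slc25a32, linked to folate and FAD, Slc25a42, a coenzyme A carrier, and Slc25a16 differed by 0.06, 0.04 and 0.05, at adjusted p values of 0.80 to 0.90.

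The mitoferrins Slc25a37 and Slc25a28 bring iron into mitochondria, and Slc25a37 is the form of developing red cells. Slc25a37 read 5.71, 5.58 and 5.52 in 2MT and 5.83, 5.47 and 6.03 in saline. Saline 3 was the highest array and saline 2 the lowest. The difference was -0.17 ± 0.12 (SE, adjusted p = 0.50), and without saline 3 it was -0.05 (adjusted p = 0.87 in limma). Slc25a28 read 5.94, 5.92 and 6.06 in 2MT and 5.95, 5.89 and 6.00 in saline (0.03, adjusted p = 0.91).

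Saline 3 was also the highest array for the erythroid genes Alas2 and Bpgm. Alas2, the erythroid enzyme that starts haem synthesis, read 5.76, 5.27 and 5.31 in 2MT and 5.41, 5.15 and 7.07 in saline. Bpgm, the red cell bisphosphoglycerate mutase, read 6.40, 6.26 and 6.34 in 2MT and 6.28, 6.37 and 6.77 in saline. Of 15 listed erythroid markers 7 were measured by a probe set with 1 symbol and 2 of those, Alas2 and Bpgm, exceeded the dim level. Saline 3 was highest for 3 of the 7, the third being dim Slc4a1 at 4.08 beside 4.07 on saline 1. For the other dim markers the highest array was saline 1 for Epb42 (3.22), saline 2 for Klf1 (4.00), 2MT 1 for Rhag (2.32) and 2MT 3 for Ermap (4.05). The mean of the 7 ran from 3.94 to 4.04 in 2MT and from 3.95 to 4.41 in saline. The part of red cells in the Slc25a37 values was not tested.

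**Figure D3:**
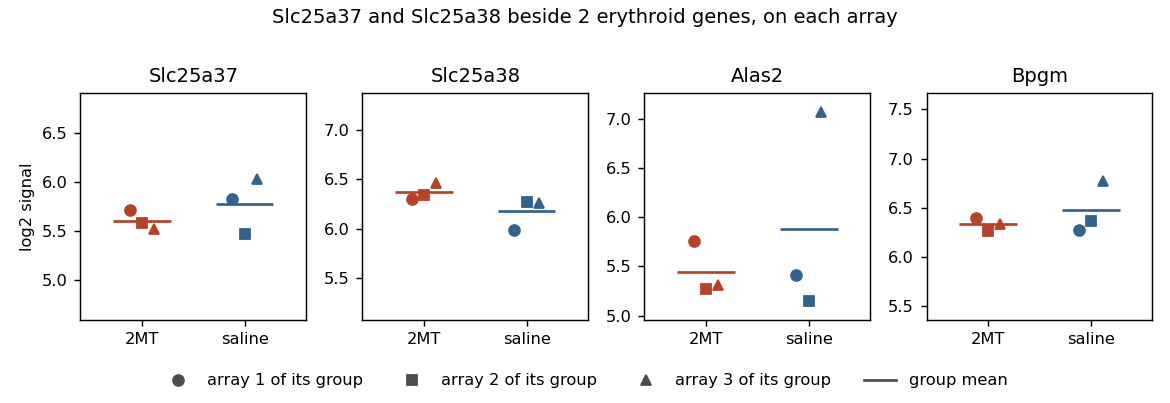
Log2 signal on each array (points) and group means (lines) of Slc25a37, Slc25a38, Alas2 and Bpgm, 2MT left and saline right. Saline 3 (triangle) was highest for Slc25a37 at 6.03, Alas2 at 7.07 and Bpgm at 6.77, and not for Slc25a38 at 6.26.

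Of the carriers that resemble uncoupling proteins, Slc25a27 differed by -0.06 and Slc25a30 by -0.05 (adjusted p = 0.83 and 0.89). Among 5 tested carriers of other or unsettled role, Slc25a34, Slc25a35, Slc25a45, Slc25a46 and Slc25a47, differences ran from -0.09 to 0.11 and the smallest adjusted p was 0.65, with 0 at an unadjusted p under 0.05 (limma). Over the 34 carriers that did not pass, 22 differed by less than 0.1, and the bounds of their 95% intervals ran from -0.53 to 0.54.

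The 10 dim carriers had mean signals of 2.00 to 3.84 over the 6 arrays. They were Slc25a2, Slc25a14, Slc25a18, Slc25a21, Slc25a31, Slc25a41, Slc25a43, Slc25a48, Slc25a53 and Slc25a54, among them the germ cell ADP/ATP carrier Slc25a31. Their differences ran from -0.16 to 0.14. In 1 of these 10, Slc25a53, the groups did not overlap, at 2.74, 2.76 and 2.77 in 2MT and 3.02, 2.78 and 2.94 in saline. Among all tested genes, which leave out dim ones, 21.1% did not overlap. With no dim filter the adjusted p of Slc25a53 was 0.68 (limma).

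Of family members with other symbols, 4 of 5 were measured and 3 tested. Ucp3, the muscle uncoupling protein, read 6.97, 7.59 and 7.19 in 2MT and 7.81, 7.88 and 7.99 in saline, without overlap. It fell by 0.64 ± 0.12 (SE, adjusted p = 0.00566). Of 46 tested genes in the 4 lists of related mitochondrial genes Ucp3 alone passed, beside 4.63% of all tested genes. Mtch2, an outer membrane relative of the carriers, read 10.56, 10.49 and 10.47 in 2MT and 10.17, 10.33 and 10.41 in saline, also without overlap. The difference was 0.20 ± 0.06 (SE, adjusted p = 0.0644), and it passed with array weights (0.0453) and without saline 3 (0.0198) in limma. Those were the only 2 passes of Mtch2 in 17 alternatives, over which its adjusted p ran up to 0.24 (limma). Mtch1 differed by 0.00 (adjusted p = 1), and Ucp1 was dim.

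Of all tested genes 4.63% passed, 17.8% had an unadjusted p under 0.05 (limma) and 21.1% were without overlap. At a share of 4.63%, 0 calls in a list of 12 to 16 genes lie near the background. Of 12 tested genes that import and insert the carriers, 0 passed in limma, 0 also at an unadjusted p under 0.05, 0 were without overlap, and the median difference was -0.03. Those with the smallest p were Tomm70a, a receptor of the outer membrane that takes up carrier precursors, at -0.09, and Timm29, a subunit of the inner membrane insertase, at -0.10 (adjusted p = 0.52 and 0.55). Of 16 other mitochondrial transporters and channels 0 passed, with 1 at an unadjusted p under 0.05 and a median of -0.04. Full separation of the arrays was seen for 6 (37.5%, beside 21.1% of all tested genes), 3 higher and 3 lower in 2MT. The gene with the low p was Tmem65, an inner membrane protein, at 0.16 (adjusted p = 0.13), and Vdac3, an outer membrane channel, followed at 0.09 (adjusted p = 0.32). Of 15 enzymes that work with the carriers 0 passed, with 0 at an unadjusted p under 0.05, 2 without overlap (13.3%) and a median of -0.04. The smallest p values were of Crat, carnitine acetyltransferase, at 0.10 (adjusted p = 0.28), and Me1 at -0.11 (adjusted p = 0.38). The same fit gave Ppargc1a, which drives mitochondrial biogenesis, a rise of 0.51 ± 0.07 (SE, adjusted p = 0.000901). That gene was chosen by name, is in none of the lists, and was read by 1 of its 2 probe sets.

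**Figure D4:**
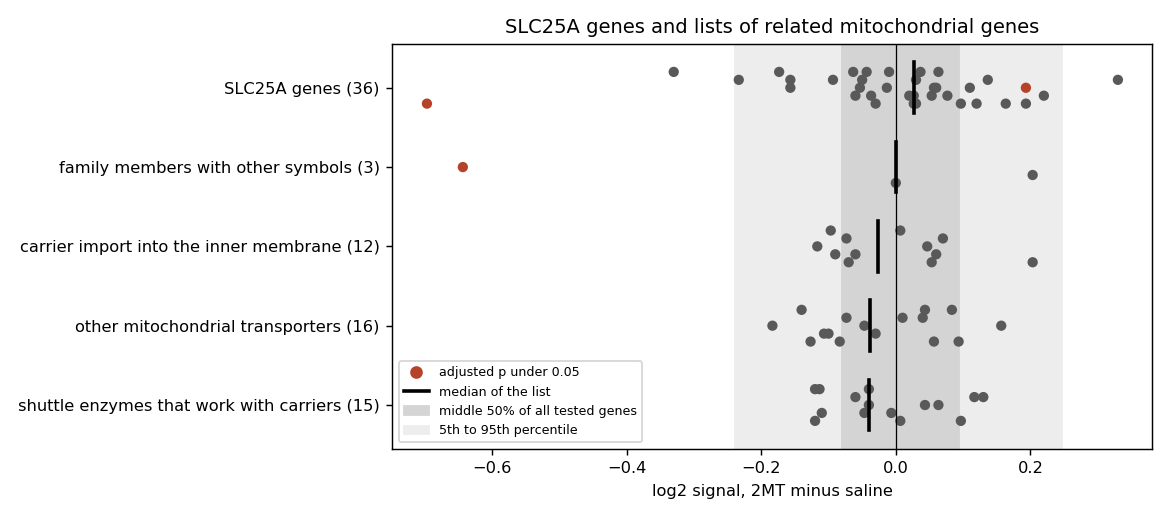
Difference in log2 signal, 2MT minus saline, of each tested gene (points) in the SLC25A family and in 4 lists of related mitochondrial genes, with list medians (black bars). The medians lay between -0.04 and 0.03, inside the darker band from -0.08 to 0.09 that holds the middle 50% of all tested genes, and Slc25a33, Ucp3 and Slc25a11 passed (red).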

How the data were processed

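The deposited table holds 1 log2 signal per probe set and array for 6 arrays. The base comes from the range of 0.51 to 13.5, which no header gives. MAS5 is named in the submitters' processing notes without a role, and the normalization is not given in the sources used here. For arrays there is no count depth, and their number limits the precision.

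Of 28944 probe sets, 21789 had 1 gene symbol in the platform annotation. Each of 19938 genes took its probe set with the highest mean. Genes under the median probe set mean, 4.345, were left out, and 10547 were tested with limma 3.58.1 in R 4.3.3 (lmFit, eBayes with a variance trend, two-sided, Benjamini-Hochberg over all genes tested). A gene rose or fell only at an adjusted p under 0.05. The procedure was tested on simulated data. Exact permutation of 3 against 3 cannot give a p below 0.1.

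Ucp2 had no probe set with 1 symbol and was not analysed here. Per-array values are given for called carriers, those at an unadjusted p under 0.05, the 5 with the highest mean and a fixed set. From the related lists, called genes and up to 2 more by p are named. Mtch1, Ucp1, Got1, Got2, Mdh1 and Mdh2 of these lists are named besides, and so is Ppargc1a, which is in none of them. Slc25a53 was added after its values were seen. Members and lists were chosen with earlier results of these data known. Figures used matplotlib 3.10.9 in Python 3.11.15.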

Additional observations from a re-analysis of the deposited data

How the results depend on the processing

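The count of carriers called higher, 1, was 0 with median centring, cyclic loess, no dim filter, every probe set tested and at an adjusted p under 0.01, and 2 at an adjusted p under 0.10. It ran from 0 to 1 with each array left out. The count called lower, 1, was 2 at an adjusted p under 0.10 and ran from 1 to 2 with each array left out. Of the related lists, 0 genes were called higher, against 1 with array weights, 1 at an adjusted p under 0.10 and 0 to 1 with each array left out. With no variance trend, Slc25a40 passed and Slc25a11 did not. Over 604 values of 36 carriers under alternatives, 9 lost a call (Slc25a11), 2 gained one (Slc25a36 and Slc25a40) and 0 called values changed sign. Among carriers that passed in neither fit, 31 values of 20 genes changed sign. Over all genes, 488 calls became 292 without the variance trend and 219 and 768 at adjusted p values under 0.01 and 0.10. With each array left out they ran from 262 to 648. The causes were not tested. The replicate block kept 1 carrier higher and 1 lower, with 586 calls over all genes. Deviations of same-numbered arrays correlated at 0.070, 0.040 and 0.022, and 5 of 6 arrays correlated best with their own number, a hint from the data. No detection calls were used, so signal over background is unknown and differences of dim genes may be understated.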
